A study of Mus musculus with 4 samples.

Results

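The let-7 guide strands and miR-98-5p were examined in small RNA sequencing of cultured mouse cortical neurons. The 9 members, mmu-let-7a-5p, mmu-let-7b-5p, mmu-let-7c-5p, mmu-let-7d-5p, mmu-let-7e-5p, mmu-let-7f-5p, mmu-let-7g-5p, mmu-let-7i-5p and mmu-miR-98-5p, were taken by name from the 1966 mature miRNA of the count tables. The species prefix is left out from here on. All 9 had reads in every library, and all 9 passed the filter on low counts that left 496 miRNA for testing. There were 2 libraries from WT neurons and 2 from APP/PS1 mutant neurons, called TgAD here. The APP/PS1 line is a model of Alzheimer's disease with transgenes for Swedish-mutant APP and for presenilin 1 without its exon 9 (APPswe, PSEN1dE9). A prion promoter drives them, mainly in neurons, and WT neurons carry neither. All neurons came from E16.5 cortex, as the labels give it, were untreated and were kept in serum-free medium for 5 days in vitro. The study cultured the cortex of each embryo separately and genotyped it afterwards. The labels do not tie the libraries to embryos, so the p values refer to libraries and not to known animals. Those of the fold changes rest on the spread between the 2 libraries of a genotype, drawn toward the spread over all tested miRNA.

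let-7 is a family of miRNA whose mature strands share the seed, the bases near the 5′ end with which a miRNA pairs to its target mRNA. The guide strand, here the 5p arm of the hairpin, is loaded into Argonaute, while the 3p arm is mostly discarded as the passenger strand. The family is known for its rise as precursor cells differentiate, for the block of its processing by LIN28 in immature cells, and for its repression of growth and cell cycle genes such as Hmga2, Myc and Ras. miR-98 is a member of this family under another name.

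The mature sequences are shown because the members share the seed and differ only outside it. They are RefSeq sequences on GRCm38.p6, read 5′ to 3′, with bases 2 to 8, the seed, in capitals.
let-7a-5p: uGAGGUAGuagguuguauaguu
let-7b-5p: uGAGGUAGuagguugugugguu
let-7c-5p: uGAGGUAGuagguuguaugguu
let-7d-5p: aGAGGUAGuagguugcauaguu
let-7e-5p: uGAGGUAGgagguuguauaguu
let-7f-5p: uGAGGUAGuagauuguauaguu
let-7g-5p: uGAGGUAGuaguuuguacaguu
let-7i-5p: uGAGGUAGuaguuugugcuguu
miR-98-5p: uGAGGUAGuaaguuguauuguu

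All 9 strands are 22 nucleotides long and hold the seed GAGGUAG. Counted from 1 at the 5′ end and with the base of let-7a-5p first, let-7c-5p differs from let-7a-5p by A19G, let-7e-5p by U9G and let-7f-5p by G12A. let-7b-5p carries A17G and A19G, let-7d-5p carries U1A and U16C, and let-7g-5p carries G12U and U18C. miR-98-5p carries G11A and A19U, and let-7i-5p is the farthest from let-7a-5p with G12U, A17G, U18C and A19U. Between any pair of members 1 to 6 bases differ. A read mapped without mismatch can therefore be assigned to 1 member only where it covers the bases that differ, as far as base 19 for let-7a-5p and let-7c-5p, and not to 1 hairpin where several hairpins hold the same strand. let-7a-5p, let-7c-5p and let-7f-5p are each encoded by 2 hairpins and the other 6 members by 1.

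In GENCODE M21, on GRCm38, miR-98 lies at chrX:151913214-151913321 on the plus strand in an intron of Huwe1, which encodes a ubiquitin ligase. Mirlet7f-2, one source of let-7f-5p, lies 785 nucleotides upstream of it in the same host gene, at chrX:151912346-151912428. Mirlet7a-1, Mirlet7f-1 and Mirlet7d form a cluster on the minus strand of chromosome 13. Mirlet7d spans 48536012 to 48536114 there and overlaps an exon of the lincRNA 6720427I07Rik. Mirlet7b and Mirlet7c-2 lie 621 nucleotides apart on chromosome 15 in the noncoding transcript Lncppara. Mirlet7c-1 lies in an intron of Mir99ahg on chromosome 16, Mirlet7a-2 in an intron of 3110039I08Rik on chromosome 9, and Mirlet7e in an intron of Spaca6 on chromosome 17. Mirlet7g lies at chr9:106178840-106178927 on the plus strand in an intron of Wdr82, and Mirlet7i at chr10:122985640-122985724 on the minus strand overlaps an exon of D630033A02Rik.

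The 4 libraries held 2070204 and 2752599 reads counted on miRNA in WT and 2758525 and 4811010 in TgAD. A count of 3 reads corresponded to 0.746 to 1.28 CPM (counts scaled to library size after TMM normalization, which sets most miRNA level between libraries). Column names of a second deposited table, of normalized values for 674 miRNA, did not match the count tables. All 674 values of the column named for WT library 1 matched the reads of TgAD library 1. The column named for WT library 2 matched WT library 1 in the same way, and the column named for TgAD library 1 matched TgAD library 2. The column named for TgAD library 2 matched none of the 4 count tables, and no column matched WT library 2. The genotype of the library labelled TgAD 1 thus differed between the deposited files. The study reported miRNA past its cutoffs in both directions with DESeq2. Grouped by the sample labels, the count tables gave 143 such miRNA with DESeq2. With its columns taken by name, the normalized table gave 0 of 480 with edgeR. Which grouping the study used was not tested. Across the 496 tested miRNA, TgAD library 1 differed from TgAD library 2 by 0.557 log2 units (root mean square) and from the WT libraries by 0.918 and 0.909, against 0.499 between the WT libraries. The groups below are those of the sample labels, and results are also given without TgAD library 1. Of 6 neuronal marker miRNA, miR-128-3p (43009 to 240174 reads), miR-138-5p and miR-153-3p were abundant. In contrast, miR-9-5p had 0 reads in every library, miR-124-3p had 1 to 7 and miR-129-5p 5 to 17. The miR-9-5p sequence is found in 3 hairpins, those of miR-128-3p, miR-138-5p and miR-129-5p in 2 each, and that of miR-153-3p in 1. The 3 markers of the oligodendrocyte lineage had 0 reads in all libraries. As miR-9-5p of neurons was also at 0, this does not show that such cells were absent.

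The family took up a large part of every library, and a smaller part in TgAD than in WT. Its 9 members summed to 523112 and 591657 reads in WT and to 390575 and 770386 reads in TgAD. These were 25.3% (95% Wilson interval 25.2 to 25.3) and 21.5% (21.4 to 21.5) of the reads in WT, and 14.2% (14.1 to 14.2) and 16.0% (16.0 to 16.0) in TgAD, where the intervals cover counting error only. Both TgAD libraries lay below both WT libraries, with means of 23.4% ± 2.67 (SD, n = 2) in WT and 15.1% ± 1.31 (SD, n = 2) in TgAD. The share of miR-99a-5p, the most abundant miRNA in each library, moved the other way, from 15.8% and 16.7% in WT to 27.0% and 31.8% in TgAD. With miR-99a-5p left out of the total, the family held 30.0% and 25.8% of reads in WT and 19.4% and 23.5% in TgAD. In TMM-scaled CPM the family summed to 222645 and 203204 in WT and to 142345 and 191567 in TgAD, a log2 ratio of the means of -0.35. This ratio was -0.15 without TgAD library 1 and -0.58 without TgAD library 2, and no p value is given for the sum because its members were chosen with results known. In RNA of a whole culture, fewer cells of a type and less RNA per cell cannot be told apart.

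**Figure D1:**
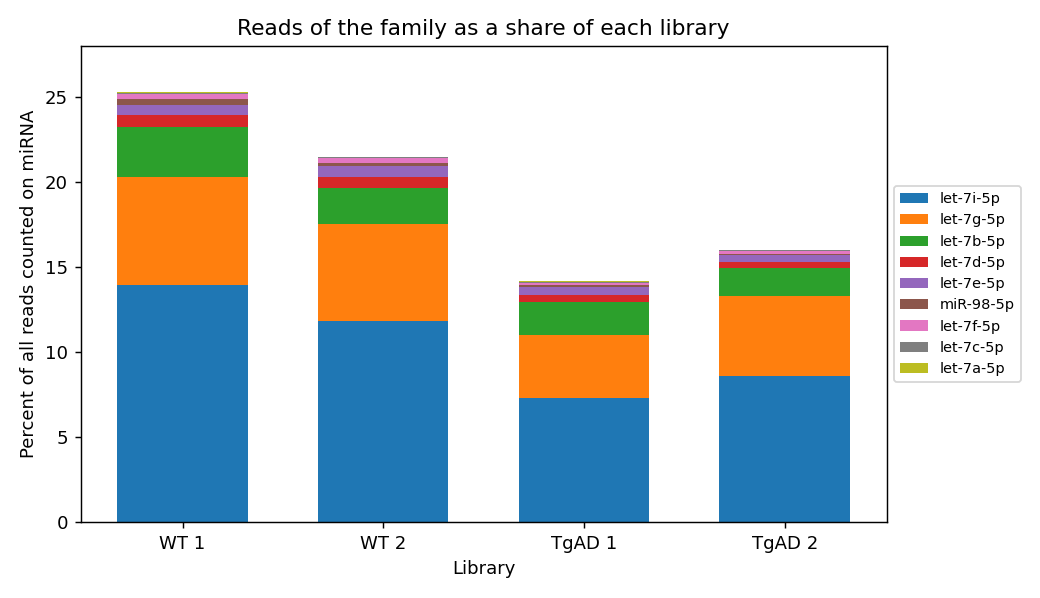
Percent of all miRNA reads taken by each of the 9 members (y axis, stacked bars) in each of the 4 libraries (x axis). let-7i-5p and let-7g-5p make up most of every bar, and the WT bars reach 25.3% and 21.5% against 14.2% and 16.0% for TgAD.

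Expression within the family was concentrated in let-7i-5p and let-7g-5p, which together made up 80.4% and 81.6% of its reads in WT and 77.7% and 83.1% in TgAD. let-7i-5p was the second most abundant miRNA of 3 libraries and the third of TgAD library 1. The mean WT levels followed the order let-7i-5p (117391 CPM ± 7852, SD, n = 2), let-7g-5p (55009), let-7b-5p (22846), let-7d-5p (6121), let-7e-5p (5743), miR-98-5p (2568), let-7f-5p (2376), let-7c-5p (793) and let-7a-5p (78.0). Each neighbour in this order was separated in both WT libraries except miR-98-5p and let-7f-5p, whose levels overlapped. These are read levels of strands of equal length, and the ligation preference of the library kit for single sequences was not tested. let-7a-5p had only 177 to 290 reads per library. The 3 members that are encoded by 2 hairpins were the 3 lowest in WT and made up 1.44% to 1.66% of the family's reads over the 4 libraries. Over all listed miRNA with a RefSeq sequence, 60.4% of 1514 strands found in 1 hairpin had reads against 40.6% of 64 strands found in 2 or more. These classes come from a match to hairpin sequences that is incomplete. It found miR-125b-5p, which has 2 loci, in 1 hairpin and miR-99b-5p in 0. How reads that map to several places were counted is not given in the sources used here, and its part in these low levels was not tested.

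In TgAD the order was let-7i-5p, let-7g-5p, let-7b-5p, let-7e-5p, let-7d-5p, let-7f-5p, let-7c-5p, miR-98-5p and let-7a-5p. miR-98-5p stood sixth in WT and eighth in TgAD, where its range met that of let-7c-5p. let-7d-5p lay above let-7e-5p by 1.07 times in WT and below it in TgAD, where let-7e-5p was 1.26 times as high, and this order was seen in both libraries of each genotype. let-7i-5p exceeded let-7g-5p by 2.20 and 2.07 times in WT and by 1.99 and 1.82 times in TgAD.

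**Figure D2:**
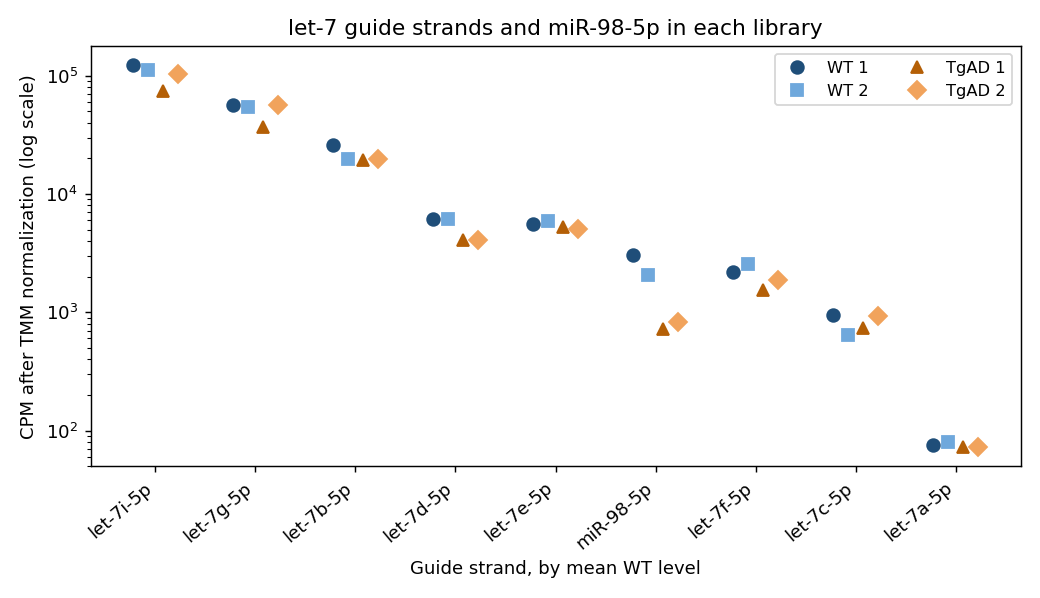
CPM after TMM normalization (y axis, log scale) of the 9 guide strands, ordered by mean WT level (x axis), with 1 point per library. miR-98-5p shows the widest gap between genotypes, with 3069 and 2067 CPM in WT and 727 and 820 in TgAD.

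miR-98-5p was the only member that passed the cutoffs of the study, a log2 fold change over 0.6 in size with an adjusted p under 0.1. It was counted 7211 and 6019 times in the WT libraries against 1994 and 3297 times in the TgAD libraries, which were 3069 and 2067 CPM against 727 and 820 CPM. Both TgAD libraries lay far below both WT libraries, and the WT libraries differed from each other more than the TgAD libraries did. miR-98-5p fell by 1.73 on the log2 scale in TgAD (SE 0.250, Benjamini-Hochberg adjusted p = 0.00934 by the quasi-likelihood test of edgeR), a decrease of 69.9%. Without TgAD library 1 it fell by 1.74 (edgeR adjusted p = 0.0308, with the lone TgAD library assumed to vary like the WT libraries). With each library left out in turn its log2 fold change ran from -2.00 to -1.40, and it was called in all 13 alternatives made from the count tables. Its smallest change, -0.82, came from a correction for GC content. With reads recovered from the normalized table and its columns taken by name, the log2 fold change was -1.58 but was not called (edgeR adjusted p = 0.443). By name, that comparison sets TgAD library 1 and WT library 1 against TgAD library 2 and the unmatched column, without WT library 2, and 0 of 480 miRNA were called there, with 54 at an unadjusted p under 0.05.

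Among the other members, let-7d-5p came closest to a call. It measured 6115 and 6127 CPM in WT and 4080 and 4063 CPM in TgAD. The genotypes did not overlap, and the libraries within each differed little, with SDs of 8.63 and 11.8 CPM. The log2 fold change was -0.59 (SE 0.184, Benjamini-Hochberg adjusted p = 0.0602 by the quasi-likelihood test of edgeR), just inside the cutoff of 0.6. It was called in 6 of 13 count-table alternatives, among them the fit without TgAD library 1 (-0.69, edgeR adjusted p = 0.0909). Without any 1 of the other libraries its edgeR adjusted p was 0.159 to 0.198.

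let-7f-5p shares 1 of its host genes with miR-98. It measured 2189 and 2562 CPM in WT and 1551 and 1891 CPM in TgAD, groups that did not overlap. Its log2 fold change of -0.46 missed the cutoffs (SE 0.206, edgeR adjusted p = 0.156). let-7i-5p, the most abundant member, measured 122943 and 111838 CPM in WT against 73641 and 102785 CPM in TgAD, with a log2 fold change of -0.41 (SE 0.256, edgeR adjusted p = 0.303). The TgAD libraries lay below the WT libraries but far apart from each other.

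let-7g-5p overlapped between genotypes, with 55970 and 54047 CPM in WT and 36981 and 56361 CPM in TgAD, and its log2 fold change was -0.24 (edgeR adjusted p = 0.551). Here TgAD library 1 alone was low, and without it the value was -0.06. let-7b-5p measured 25776 and 19915 CPM in WT and 19333 and 19623 CPM in TgAD, a log2 fold change of -0.23. WT library 1 alone stood high for let-7b-5p, and the value was -0.02 without it and -0.42 without WT library 2.

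let-7e-5p measured 5566 and 5921 CPM in WT and 5219 and 5017 CPM in TgAD, a log2 fold change of -0.17. let-7a-5p lay at 75.3 and 80.7 CPM in WT and at 72.5 and 72.1 CPM in TgAD, a log2 fold change of -0.11. These shifts were smaller than their standard errors of 0.187 and 0.217. let-7c-5p overlapped, with 941 and 645 CPM in WT and 741 and 936 CPM in TgAD, and was the only member with a fold change above 0, at 0.08 (SE 0.251).

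Over the family, 1 of 9 members was called, lower in TgAD, and 0 were called higher, while 33.1% of all tested miRNA were called and 17.3% were called lower. The genotypes did not overlap for 7 of 9 members, where 63.1% of all tested miRNA did not overlap. The median log2 fold change of the members was -0.24 against 0.03 for all tested miRNA, and 8 of 9 members lay below 0 where 47.6% of tested miRNA did. The direction of the small changes depended on the scaling. With total counts as library size the median of all tested miRNA moved to -0.23, let-7c-5p turned to -0.20, and 4 members were called lower, namely miR-98-5p, let-7d-5p, let-7f-5p and let-7i-5p. With a correction for GC content let-7a-5p, let-7e-5p, let-7f-5p and let-7g-5p turned positive, at 0.24 to 0.54. miR-98-5p, let-7d-5p, let-7b-5p and let-7i-5p stayed below 0 in all 14 alternatives.

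**Figure D3:**
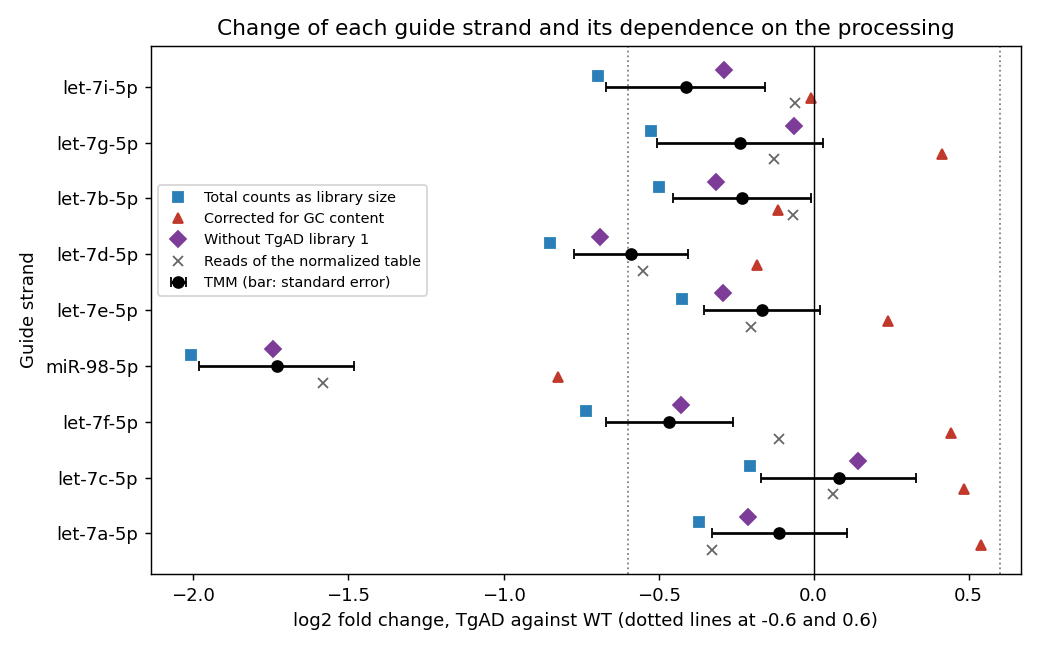
log2 fold change of TgAD against WT (x axis) for the 9 guide strands (y axis), with TMM normalization as black points with standard errors and 4 alternatives as coloured marks. miR-98-5p lies beyond the dotted line at -0.6 in all 5, from -2.01 to -0.82, while the other 8 members run from -0.85 to 0.54 over the same 5.

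Base composition differed among the members. GC content ran from 31.8% in miR-98-5p and let-7f-5p to 45.5% in let-7b-5p. Across the 9 members GC content and log2 fold change had a Pearson r of 0.55 and a Spearman rho of 0.41, points that share the same 4 libraries, and over the 8 members without miR-98-5p they were 0.18 and 0.17. Across the 441 tested miRNA with a RefSeq sequence these were 0.35 and 0.42, and the median GC content was 47.8%. miR-98-5p and let-7f-5p have the same GC content and log2 fold changes of -1.73 and -0.46. The part of base composition in the fold changes was not tested beyond the correction.

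**Figure D4:**
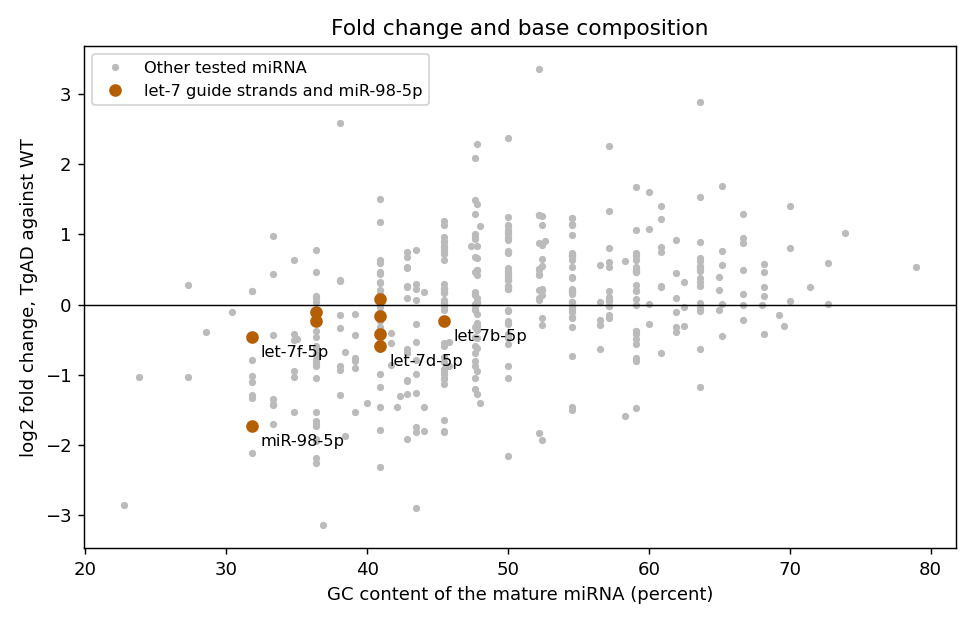
GC content of the mature miRNA in percent (x axis) and log2 fold change of TgAD against WT (y axis) for the tested miRNA with a RefSeq sequence, members in orange and the others in grey, with 1 miRNA at 0 reads in both TgAD libraries left off. The members lie between 31.8% and 45.5% GC, in the lower range of all tested miRNA.

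Shares within the family do not depend on how the libraries are scaled. miR-98-5p made up 1.38% and 1.02% of the family's reads in WT and 0.511% and 0.428% in TgAD. let-7i-5p made up 55.2% and 55.0% in WT and 51.7% and 53.7% in TgAD, and let-7c-5p made up 0.423% and 0.318% in WT and 0.520% and 0.489% in TgAD. For these 3 members the genotypes did not overlap (exact permutation p = 0.33, two-sided, the smallest that 2 against 2 libraries can give), where 62.9% of all tested miRNA did not overlap relative to the family sum. The other 6 overlapped. With recovered reads and columns taken by name, the difference of let-7i-5p turned from -2.43 to 2.31 percentage points, let-7c-5p had 0.0483 instead of 0.134, and miR-98-5p had -0.578 instead of -0.729. let-7g-5p held 25.1% and 26.6% in WT and 26.0% and 29.4% in TgAD, and let-7b-5p held 11.6% and 9.80% in WT and 13.6% and 10.2% in TgAD. let-7d-5p, whose CPM did not overlap, held 2.75% and 3.02% in WT and 2.87% and 2.12% in TgAD.

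Set against its genomic neighbour, miR-98-5p had 140.2 and 80.7 reads per 100 reads of let-7f-5p in WT and 46.8 and 43.4 in TgAD. Against let-7i-5p it had 2.50 and 1.85 reads per 100 in WT and 0.987 and 0.798 in TgAD. In neither ratio did the genotypes overlap, where 68.3% of the other tested miRNA did not overlap relative to let-7f-5p and 63.8% relative to let-7i-5p.

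The 3p arms of the same hairpins did not all move with their guide strands. Of 12 listed 3p arms 10 were tested, and 2 were called lower and 2 higher, a share near the 33.1% of all tested miRNA. Their median log2 fold change was 0.04. miR-98-3p measured 177 and 69.4 CPM in WT and 24.1 and 32.1 CPM in TgAD, and fell by 2.12 on the log2 scale (SE 0.469, edgeR adjusted p = 0.0276). Its log2 fold change was -1.28 without WT library 1, its highest library, and -2.03 without TgAD library 1. With the GC correction it was -1.21, still called but close to the cutoff of 0.1 (edgeR adjusted p = 0.0972). let-7f-2-3p, which comes from the hairpin next to miR-98, measured 140 and 179 CPM in WT and 63.0 and 67.4 CPM in TgAD and fell by 1.29 (SE 0.232, edgeR adjusted p = 0.0157), or by 0.73 with the GC correction. let-7f-1-3p, from the chromosome 13 hairpin with the same guide strand, had a log2 fold change of -0.10 (edgeR adjusted p = 0.834), and the difference between these arms was not tested. The reads of let-7f-5p itself cannot be divided between the hairpins.

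let-7d showed opposite signs on its arms. The 3p arm is printed with its bases 2 to 8 in capitals, since it shares no seed with the guide strand.
let-7d-3p: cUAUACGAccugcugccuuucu

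let-7d-3p measured 630 and 537 CPM in WT and 1004 and 1363 CPM in TgAD. This arm rose by 1.02 on the log2 scale (SE 0.226, edgeR adjusted p = 0.0276), and by 1.13 without TgAD library 1. The hairpin gave 9.70 and 11.4 reads of let-7d-5p per read of let-7d-3p in WT and 4.06 and 2.98 in TgAD, a comparison within a library that needs no scaling. The ratio was not corrected for base composition, and GC content is 40.9% in let-7d-5p and 50.0% in let-7d-3p. With the GC correction the log2 fold changes of these arms were -0.18 and 0.89. The 3p arm held 9.34% and 8.06% of the reads of both arms in WT and 19.8% and 25.1% in TgAD. let-7b-3p measured 48.9 and 47.7 CPM in WT and 66.7 and 96.2 CPM in TgAD, and rose by 0.76 (SE 0.268, edgeR adjusted p = 0.0859), a call lost without WT library 1, WT library 2 or TgAD library 2 (edgeR adjusted p = 0.225, 0.271 and 0.294), and also with DESeq2, total counts, no filter, GC correction and recovered reads (adjusted p = 0.102 to 0.486). Reads of let-7b-5p per read of let-7b-3p were 527 and 417 in WT and 290 and 204 in TgAD, and those of let-7e were 101 and 122 in WT and 76.6 and 74.7 in TgAD. For let-7b, let-7d and let-7e the genotypes did not overlap (exact permutation p = 0.33, two-sided), and they did for let-7g, let-7i and miR-98. Over the 138 hairpin names with both arms tested and read in every library, 68.8% of such ratios did not overlap. The guide to passenger ratio of miR-98 was 17.4 and 29.8 in WT and 30.2 and 25.6 in TgAD.

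**Figure D5:**
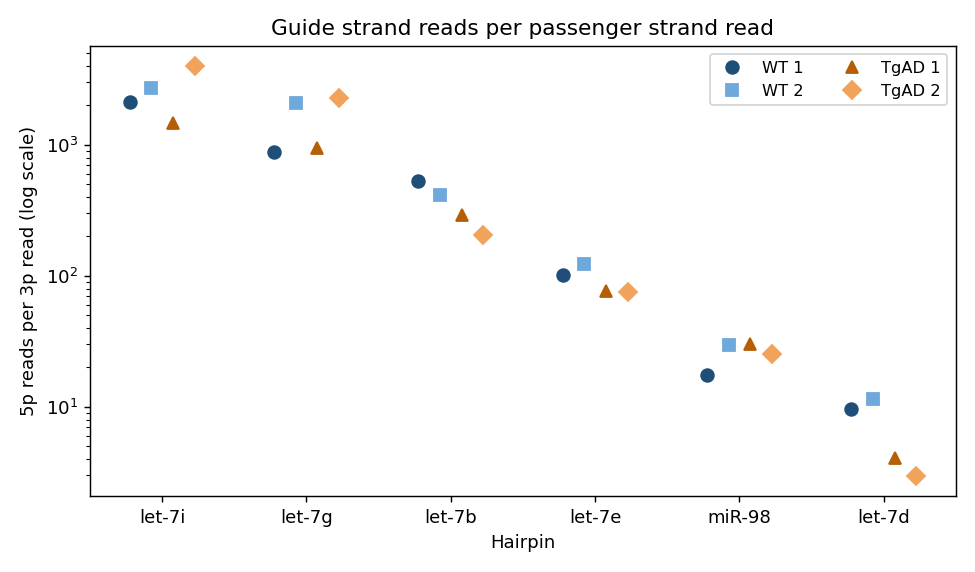
Reads of the 5p arm per read of the 3p arm (y axis, log scale) for the 6 hairpins whose arms are each found in 1 hairpin only (x axis), with 1 point per library. For let-7d the WT points at 9.70 and 11.4 lie above the TgAD points at 4.06 and 2.98, and for miR-98 the genotypes overlap.

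Of the 5 miR-99, miR-100 and miR-125 strands that are encoded beside let-7 hairpins, 3 were called higher and 0 lower. Over all tested miRNA, 15.7% were called higher. The median log2 fold change of the 5 strands was 0.96. miR-100-5p overlapped between genotypes, with 14320 and 25312 CPM in WT and 19576 and 27914 CPM in TgAD. Its log2 fold change was 0.26 (edgeR adjusted p = 0.603). Without TgAD library 1 the 3 called strands, miR-99a-5p, miR-125a-5p and miR-125b-5p, had log2 fold changes of 1.26, 0.87 and 1.03. miR-99a-5p, encoded beside Mirlet7c-1, measured 139344 and 157516 CPM in WT and 271271 and 380515 CPM in TgAD, a log2 fold change of 1.13 (edgeR adjusted p = 0.0299) that was not called without TgAD library 2 (0.90, edgeR adjusted p = 0.106). let-7c-5p and let-7c-1-3p from that locus had log2 fold changes of 0.08 and 0.18 and were not called. miR-125a-5p, encoded beside Mirlet7e, had a log2 fold change of 0.96 (edgeR adjusted p = 0.0276) against -0.17 for let-7e-5p, and miR-99b-5p of the same cluster had 0.38 (edgeR adjusted p = 0.263). miR-125b-5p, which has 2 loci, had 1.07 (edgeR adjusted p = 0.0336) and was not called without WT library 1 (0.78, edgeR adjusted p = 0.104).

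Other strands with the family's seed added almost no reads. let-7k had 11 and 0 reads in WT and 1 and 0 in TgAD, and miR-1961 had a single read in 1 library. let-7j, which over 22 bases differs from let-7i-5p by G8U and so lacks the seed, was read 108 and 126 times in WT and 82 and 145 times in TgAD. It made up 0.0374 and 0.0387 reads per 100 reads of let-7i-5p in WT and 0.0406 and 0.0351 in TgAD, a ratio that hardly changed from library to library.

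Across the 4 libraries, the pattern of the summed family was closest to that of let-7i-5p, with a root mean square difference of 0.0377 log2 units after centring, and farthest from that of miR-98-5p among the members, at 0.694. let-7i-5p supplies 51.7% to 55.2% of the sum, which by itself brings the patterns close. Outside the family, the closest of 211 abundant miRNA were miR-325-5p (0.0754), miR-487b-3p (0.0919) and miR-30a-3p (0.106). Among marker miRNA of other cells, 4 of 5 blood and myeloid markers had reads, led by miR-451a of red blood cells at 1309 and 1330 CPM in WT and 957 and 645 CPM in TgAD (edgeR adjusted p = 0.0707). miR-142a-3p, a defining blood marker, had 0 reads in every library. miR-142a-5p lay higher in TgAD, at 8.94 and 8.59 CPM in WT and 10.9 and 12.7 CPM in TgAD, and was not called. miR-223-3p, with 3 to 8 reads, was also higher in TgAD, and miR-144-3p, with 0 to 3 reads, was lower. miR-451a made up most of the list's sum of 1320 and 1341 CPM in WT and 971 and 660 CPM in TgAD. Of 4 endothelial and mural markers 2 were at 0 in all libraries, both arms of miR-126a, and the list summed to 718 to 901 CPM without separating the genotypes. Of the neuronal markers miR-128-3p was called higher in TgAD, with a log2 fold change of 1.49 (edgeR adjusted p = 0.0294), and it made up most of the list's sum of 20548 and 34747 CPM in WT and 85772 and 60702 CPM in TgAD. miR-138-5p and miR-153-3p had log2 fold changes of -0.63 and -0.38 (edgeR adjusted p = 0.226 and 0.340), and the median of the 4 tested neuronal markers was -0.09. The 4 markers of early embryonic stem cells summed to 8 to 19 reads. Markers at 0 reads do not show that their cells were absent, as miR-9-5p of neurons was also at 0. The part of cell composition in the levels of the family was not tested.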

How the data were processed

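Small RNA was sequenced from 2 WT and 2 TgAD cultures of cortical neurons, grouped by the sample labels. The authors mapped 50 bp reads, single-end in their methods and paired-end in the labels, to GRCm38.p6 with Bowtie2 without mismatch and counted them on miRBase miRNA with HTSeq. They deposited raw read counts per miRNA, 1 table per library, which were used here. They also deposited a table of normalized counts, a signal in 4 columns of counts over a size factor, of which 3 held count-table libraries under other names and 1 held none. In it 100% of values were whole multiples of 1 read (tolerance 0.01) and 0 miRNA were called.

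Counts were analysed with edgeR 4.0.16 (limma 3.58.1, R 4.3.3), using TMM, filterByExpr, the quasi-likelihood test with genotype as the only factor and Benjamini-Hochberg adjustment over the 496 miRNA tested. Shares were tested by exact permutation. Members and lists were chosen with earlier results of these data known. The text names the 9 members, strands with their seed, 12 3p arms, 5 cluster neighbours, the most abundant miRNA, marker miRNA and the 3 miRNA most like the family's sum with a mean of at least 100 CPM. let-7j, which lacks the seed, and ratios of arms were added after values were seen. Alternatives were RLE, total counts with and without the most abundant miRNA, no filter, at least 10 reads in every library, DESeq2 1.42.0, the robust option, replicate block, GC correction (local regression, span 0.75), recovered reads and leaving out each library. The procedure was run on simulated counts with the same dispersion (relative spread) for all miRNA and no trend with GC content. That setting differs from these data, so it does not show how well the p values hold here. Sequences and hairpins came from RefSeq and GENCODE M21, and figures from matplotlib 3.10.9 in Python 3.11.15 with pandas 2.3.3. Depth was 2070204 to 4811010 reads, and intervals cover counting error only, as reads had no molecular identifiers.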

Additional observations from a re-analysis of the deposited data

How the results depend on the processing

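With 2 libraries per genotype, 110 of 126 member fold changes under the alternatives kept their direction and their side of the cutoffs. The median log2 fold change of the members (-0.24) was -0.52 with total counts as library size, 0.24 with GC correction and -0.13 with recovered reads, and ran from -0.54 to -0.20 with each library left out. The number of members called (1) was 4 with total counts, 2 with total counts without miR-99a-5p, without a filter, with at least 10 reads in every library and with DESeq2, where let-7d-5p joined, 0 with recovered reads and 1 to 2 with each library left out. Over all miRNA, 78 were called higher, against 43 with total counts, 0 with recovered reads and 47 to 61 with a library left out. With recovered reads, 0 miRNA were called lower, 0 in all, and 0 of the 7 3p arms and cluster neighbours, and 54 of 480 had an unadjusted p under 0.05. The share of calls that were lower moved from 52.4% to 73.9% with total counts. The family level (log2 ratio -0.35) was -0.63 with total counts and -0.58 to -0.15 with a library left out. let-7c-5p turned to -0.20 with total counts and ran from -0.18 to 0.39 with a library left out. With GC correction let-7a-5p was 0.54, let-7e-5p 0.24, let-7f-5p 0.44 and let-7g-5p 0.42. The cause of these changes was not tested. Of 54 member shares under the alternatives 49 moved by less than the spread between replicates, and the other 5, those of let-7a-5p, let-7c-5p, let-7e-5p, let-7g-5p and let-7i-5p, were with recovered reads.

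The replicate numbers only name the libraries, since the labels tie them to no litter or day. Same-numbered libraries deviated together with r = 0.216 over 496 miRNA. With the replicate block 188 miRNA were called (101 lower, 87 higher), and miR-98-5p was the 1 member called, at -1.71 (edgeR adjusted p = 3.05e-10). This fit leaves 1 residual degree of freedom, so its p values rest mostly on spread shared across miRNA. The standard error of miR-98-5p, 0.244, was close to the 0.250 of the main fit, and the smaller p value is not read as stronger evidence.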

Other observations

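The column of the normalized table that matched none of the 4 count tables held 1926952 recovered reads. It is named for TgAD library 2. The let-7 guide strands and miR-98-5p made up 10.3% of its reads, miR-98-5p made up 0.306% of the family, and miR-99a-5p took 39.7% of all its reads. It gave 1.60 reads of let-7d-5p per read of let-7d-3p. Across the 496 tested miRNA its log2 levels had a Pearson r of 0.927 and 0.929 with the WT libraries and 0.966 and 0.970 with the TgAD libraries. Which sample it came from was not settled, and it entered only the alternative with recovered reads.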
